A study of Jaculus jaculus and Mus musculus with 24 samples.

Results

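The muscle inside the hindfoot of the jerboa was compared with its forelimb muscle at postnatal day 3 (P3), and the same limb difference in the mouse was subtracted from it. The quantity described throughout is this species by limb interaction, the log2 fold change of foot over forelimb in jerboa minus that in mouse. A positive interaction means that the foot to forelimb ratio of a gene was higher in jerboa than in mouse, and a negative one that it was lower. It covers 12531 of the 17641 features in the files, those with at least 10 reads in at least 3 jerboa and at least 3 mouse libraries of this age. 13128 features met this minimum in jerboa and 13636 in mouse.

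The lesser Egyptian jerboa (Jaculus jaculus) is a bipedal desert rodent that loses the intrinsic muscles of its hindfoot after birth and keeps its forelimb muscles, while the laboratory mouse keeps both. The 4 groups were P3_jerboa_foot, P3_jerboa_forelimb, P3_mouse_foot and P3_mouse_forelimb, each with 3 libraries of total RNA and each given the treatment "normal". No strain, genotype or agent is named for either species. Hindfoot muscle was taken from sections of the foot and forelimb muscle was the dissected flexor digitorum superficialis (FDS), in both species, so sampling and limb cannot be told apart within a species. The same 4 groups at birth (P0) are used beside the P3 values. Nothing in the labels ties a library to its own animal. The p-values therefore measure only the spread between these libraries, which may be technical.

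Skeletal muscle fibres contract through sarcomeres, the repeated units of their myofibrils, in which thick myosin filaments pull on thin actin filaments anchored at Z-discs. Newborn fibres use developmental forms of these proteins and replace them with adult fast and slow forms. Muscle that loses its nerve or its load breaks proteins down through ubiquitin ligases such as Trim63 (MuRF1) and Fbxo32 (atrogin-1), the proteasome and autophagy, and raises genes of the immature acetylcholine receptor. Satellite cells, the stem cells of muscle, supply new nuclei. An interaction cancels any effect of gene length or gene model on counts that is the same in both limbs of a species, which allows limb differences to be set side by side between 2 genomes.

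The P3 libraries held 20.7 M to 54.7 M reads. Where no read was counted in 1 library, the level can still reach 3 reads, or 0.0549 to 0.145 CPM (read counts scaled to a common library size), for counting error only. Libraries of 1 group resembled one another closely (r from 0.9973 to 0.9989 of log2 CPM across features, where features are not independent replicates). The first principal component held 77.4% of the variance. It separated the species and, less widely, the limbs within each species, and no library stood apart from its group. The limb labels were checked with Tbx5, a T-box gene of the forelimb, and with Tbx4 and Pitx1, genes of hindlimb identity. Tbx5 had 2 reads in jerboa foot over 3 libraries against 743 in forelimb, a forelimb to foot ratio of 336 (counting interval 92.7 to 2780, 95%). In mouse foot it had 0 reads against 1579 in forelimb, at least 439-fold lower against 3 reads over the group. Pitx1 had 625 reads in jerboa foot and 2 in forelimb, a ratio of 345 (95.2 to 2859), and Tbx4 stood at 103, 108 and 93.6 CPM in foot and 2.06, 2.35 and 3.19 CPM in forelimb of jerboa. Mouse libraries held Tbx4 at 53.3, 45.1 and 46.2 CPM in foot and 15.1, 12.2 and 12.8 CPM in forelimb. Its foot libraries were above its forelimb libraries in both species, with an interaction of 3.49 ± 0.17 (adjusted p = 6.26e-10).

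The interaction passed an adjusted p of 0.05 for 7760 of 12531 features (61.9%), of which 3983 were higher (31.8% of features) and 3777 lower (30.1%). The median interaction over all features was 0.03, with quartiles at -0.42 and 0.38, so most differences were small. At least 2-fold differences were called higher for 871 features and lower for 1182, at least 4-fold for 240 and 234, and at least 8-fold for 90 and 64. Foot and forelimb differed in jerboa for 9704 features (77.4%; 40.1% higher and 37.3% lower in foot) and in mouse for 7907 (63.1%; 31.5% higher and 31.6% lower). These comparisons share libraries with the interaction, so their values are given beside it and not as separate support.

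Most calls came with a difference in jerboa. Of the 3983 features with a higher interaction, 1455 (36.5%) were higher in jerboa foot with no call in mouse, 1077 (27.0%) were higher in foot in both species, and 633 (15.9%) were higher in jerboa foot and lower in mouse foot. A further 513 (12.9%) were lower in mouse foot with no call in jerboa. Of the 3777 with a lower interaction, 1293 (34.2%) were lower in foot in both species, 1172 (31.0%) were lower in jerboa foot with no call in mouse, 660 (17.5%) were lower in jerboa foot and higher in mouse foot, and 466 (12.3%) were higher in mouse foot with no call in jerboa. An arm without a call is not shown to be without change.

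**Figure D1:**
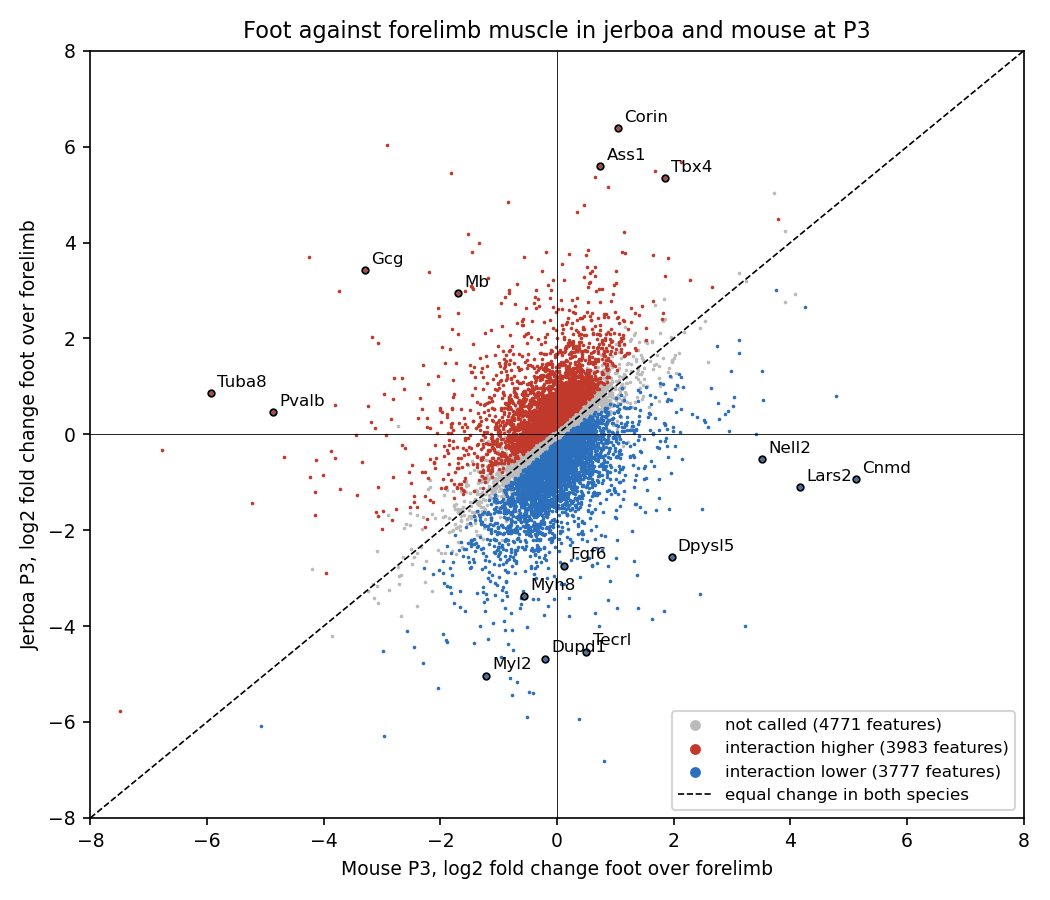
Each point is 1 of the 12531 features at P3, with the log2 fold change of foot over forelimb in mouse on the x axis and in jerboa on the y axis, and the dashed line marks equal change in both species. Red points (3983, interaction higher) lie above the line and blue points (3777, interaction lower) below it, with named genes circled. 5 features lie outside the plotted range of 8 log2 units.

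Among the largest positive interactions, those of Ass1 and Corin came mostly from jerboa. Ass1, argininosuccinate synthase, makes the precursor of arginine. It stood at 2558, 2970 and 3177 CPM in foot and 58.6, 69 and 51.7 CPM in forelimb of jerboa. Mouse libraries held it at 2.37, 2.22 and 2.62 CPM in foot and 1.4, 1.4 and 1.49 CPM in forelimb. Foot was above forelimb without overlap in both species, by far more in jerboa. The log2 fold change was 5.60 ± 0.11 in jerboa and 0.74 ± 0.18 in mouse, an interaction of 4.86 ± 0.23 (adjusted p = 4.64e-10).

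Corin, a membrane protease that activates atrial natriuretic peptide, was found at 67.5, 60.5 and 54.2 CPM in foot and 0.922, 0.614 and 0.609 CPM in forelimb of jerboa. In mouse it was found at 19.4, 21.8 and 17.8 CPM in foot and 9.61, 9.22 and 9.87 CPM in forelimb. Jerboa forelimb lay below 1 CPM, and foot exceeded forelimb without overlap in both species. Its interaction of 5.35 ± 0.19 (adjusted p = 4.96e-11) came from a log2 fold change of 6.39 in jerboa and 1.04 in mouse. Asb14, a subunit of muscle ubiquitin ligases with ankyrin repeats, was at 49.7, 44.4 and 48.2 CPM in foot and 5.47, 6.93 and 5.12 CPM in forelimb of jerboa and at 2.7, 2.06 and 1.81 CPM in foot and 6.3, 6.46 and 4.89 CPM in forelimb of mouse. Foot was above forelimb in jerboa and below it in mouse, without overlap, with an interaction of 4.46 ± 0.20. The myosin heavy chain Myh15 showed the same order, at 36.9, 30.1 and 30 CPM in foot and 3.14, 3.82 and 2.26 CPM in forelimb of jerboa and 0.109, 0.181 and 0.202 CPM in foot and 0.98, 0.807 and 0.588 CPM in forelimb of mouse, with an interaction of 5.59 ± 0.38.

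Cma1 and Cpa3, proteases of mast cells, were also among the 10 largest positive interactions. Cma1 measured 30.8, 28.7 and 56.5 CPM in foot and 0.861, 1.26 and 0.609 CPM in forelimb of jerboa and 60.9, 69.1 and 69.6 CPM in foot and 30.6, 46.7 and 49.7 CPM in forelimb of mouse. Foot was above forelimb without overlap in both species, by far more in jerboa. Cpa3 measured 41.5, 29.9 and 69.5 CPM in foot and 1.51, 1.54 and 0.824 CPM in forelimb of jerboa and 68.6, 70.2 and 77.3 CPM in foot and 29.7, 41.3 and 47 CPM in forelimb of mouse, with the same order. The interactions were 4.73 ± 0.43 and 4.28 ± 0.43. The mouse difference of Cma1, 0.65, was not called in DESeq2 or without the first mouse forelimb library (adjusted p = 0.063 in each). Neither gene was called in mouse when a minimum of 1.5-fold was required. The 4 neutrophil and mast cell markers tested, of 7 in the files and 12 in the list, summed to 66 to 138 CPM in jerboa foot, 13.1 to 14 CPM in jerboa forelimb, 146 to 166 CPM in mouse foot and 82.7 to 128 CPM in mouse forelimb. 2 of them were higher in the interaction and 0 lower. Elane was at 0 reads in jerboa foot. The part of these cells in other results was not tested.

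Another set of positive interactions came from the mouse or from opposite changes. Mb, myoglobin, the oxygen store of oxidative fibres, was at 339, 411 and 447 CPM in foot and 59.1, 35.5 and 61 CPM in forelimb of jerboa. Mouse libraries held it at 130.2, 113 and 133 CPM in foot and 394, 408 and 421 CPM in forelimb. Foot exceeded forelimb in every jerboa library and fell short of it in every mouse library, so the groups did not overlap in either species. The log2 fold changes were 2.94 ± 0.16 in jerboa and -1.70 ± 0.15 in mouse, and the interaction was 4.64 ± 0.21 (adjusted p = 4.43e-10).

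Tuba8, an alpha-tubulin, had the largest positive interaction among genes reaching 10 CPM, 6.80 ± 0.28 (adjusted p = 1.70e-10). It read 3.03, 2.47 and 2.69 CPM in foot and 1.44, 1.94 and 1.11 CPM in forelimb of jerboa and 0.381, 0.398 and 0.582 CPM in foot and 24, 30.6 and 29.4 CPM in forelimb of mouse. Mouse foot lay far below mouse forelimb, while jerboa foot lay above jerboa forelimb. Pvalb, parvalbumin, a calcium buffer of fast fibres, likewise differed through the mouse, at 18.8, 14.3 and 16.6 CPM in foot and 475, 453 and 513 CPM in forelimb. Its jerboa libraries lay at 4.23, 11.7 and 4.44 CPM in foot and 3.41, 4.13 and 7.85 CPM in forelimb, and these overlapped. The jerboa difference was 0.46 ± 0.35 (adjusted p = 0.24) and turned to -0.22 without the second foot library, while the interaction was 5.33 ± 0.42. Without the third jerboa forelimb library the jerboa difference was 0.88 with an adjusted p of 0.039.

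Gcg, which encodes proglucagon, a hormone precursor of pancreas and gut, rested on fewer reads. It was at 15.3, 13.5 and 9.73 CPM in foot and 0.984, 1.33 and 1.33 CPM in forelimb of jerboa and at 0, 0.0542 and 0.112 CPM in foot and 0.73, 0.446 and 0.625 CPM in forelimb of mouse, where the foot libraries lay near the level of a few reads. Its interaction was 6.71 ± 0.53, and 7.5 without the third mouse foot library. The counts do not show whether the reads of this feature come from Gcg transcripts, and how they were aligned was not examined here, so the value describes reads assigned to the feature.

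Of genes at 10 CPM or more in both species, 421 were higher in jerboa foot and lower in mouse foot. Ranked by the smaller of the changes, the leading ones were Mb, Naalad2, Hr, Kcnc4 and Lrrc2. Naalad2, a peptidase that cleaves acidic dipeptides, was at 30.9, 30.4 and 27.4 CPM in foot and 8.02, 9.42 and 8.31 CPM in forelimb of jerboa and 8.96, 10.8 and 11 CPM in foot and 36.9, 33.5 and 39.7 CPM in forelimb of mouse. Kcnc4, the potassium channel Kv3.4, was at 88.2, 82.2 and 84.5 CPM in foot and 37.7, 36.1 and 30.4 CPM in forelimb of jerboa and 37.3, 29.6 and 31.5 CPM in foot and 83.2, 90.9 and 96.5 CPM in forelimb of mouse. For both genes foot was above forelimb in jerboa and below it in mouse, without overlap. The interactions were 3.63 ± 0.13 for Naalad2, 2.75 ± 0.13 for Kcnc4, 3.79 ± 0.19 for Hr, a corepressor of nuclear receptors, and 3.27 ± 0.28 for Lrrc2, a leucine-rich repeat protein.

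**Figure D2:**
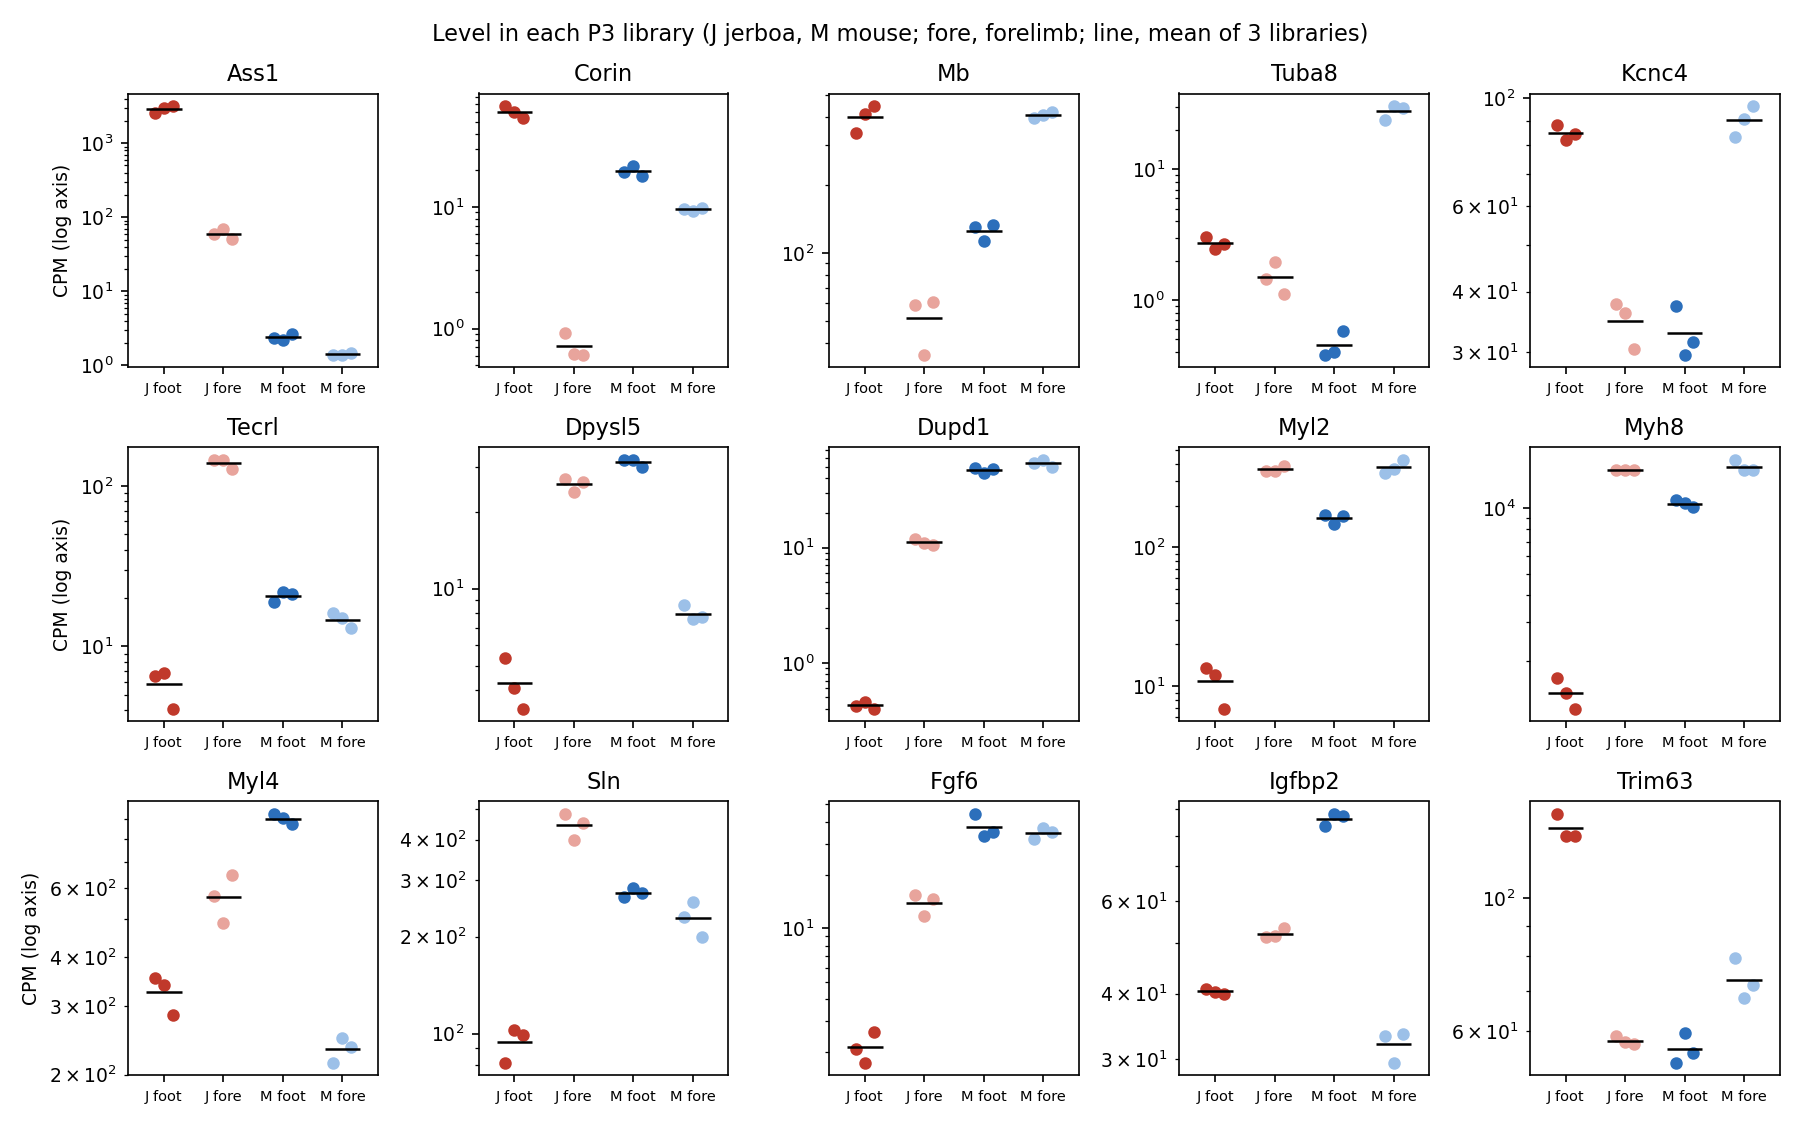
Level of 15 genes in each of the 12 P3 libraries, in CPM on a log axis that differs between panels, with points for libraries and lines for the means of 3 libraries. Within jerboa, Ass1 is higher in foot, at 2558 to 3177 CPM, than in forelimb, and Myh8 and Myl2 are lower in foot. Mb and Kcnc4 change in opposite directions in jerboa (J) and mouse (M).

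Tecrl, an enoyl-CoA reductase-like protein of the muscle endoplasmic reticulum, led the negative interactions together with Lars2, among genes that reached 10 CPM and had more than 3 reads in every group. It read 6.57, 6.85 and 4.09 CPM in foot and 145, 144 and 128 CPM in forelimb of jerboa. Mouse libraries read 19, 21.9 and 21.3 CPM in foot and 16.1, 15 and 12.9 CPM in forelimb. Jerboa foot was far below jerboa forelimb and mouse foot above mouse forelimb, both without overlap. The log2 fold change was -4.54 ± 0.13 in jerboa and 0.50 ± 0.11 in mouse, an interaction of -5.04 ± 0.17 (adjusted p = 3.57e-11).

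Lars2, the mitochondrial leucyl-tRNA synthetase, differed mostly through the mouse. It was at 25.7, 25.3 and 23.1 CPM in foot and 52.3, 51.3 and 55.2 CPM in forelimb of jerboa and at 1469, 2283 and 1394 CPM in foot and 86, 91.7 and 108 CPM in forelimb of mouse. Mouse foot was more than 10 times above mouse forelimb and was uneven between its own libraries. The interaction was -5.26 ± 0.22, from -1.10 in jerboa and 4.17 in mouse. As for Gcg, the counts do not show whether the mouse foot reads come from Lars2 transcripts. Nell2, a secreted glycoprotein, followed the same pattern at 2.11, 3.06 and 3.04 CPM in foot and 4.86, 3.38 and 3.4 CPM in forelimb of jerboa and 7.92, 9.91 and 12.6 CPM in foot and 0.771, 1.08 and 0.809 CPM in forelimb of mouse. Its jerboa libraries lay close together, while mouse foot was above mouse forelimb. The interaction was -4.04 ± 0.32, with a jerboa difference of -0.52 ± 0.22 (adjusted p = 0.045) that was not called in 5 of the 12 fits that left out a library, nor under RLE scaling, limma voom or the replicate block.

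Dpysl5, a member of the collapsin response mediator family of growing axons, moved in opposite directions. Jerboa libraries held it at 5.34, 4.08 and 3.39 CPM in foot and 26.9, 24 and 26.2 CPM in forelimb, and mouse libraries at 31.9, 31.7 and 29.8 CPM in foot and 8.61, 7.58 and 7.76 CPM in forelimb. Foot was below forelimb in jerboa and above it in mouse, with no overlap, and the interaction was -4.53 ± 0.15 (adjusted p = 3.61e-11). It led the 473 genes at 10 CPM or more in both species that were lower in jerboa foot and higher in mouse foot, with Lars2, Scn3b, Shroom3 and Dclk1. Scn3b, a sodium channel beta subunit, had an interaction of -2.95 ± 0.17. Shroom3, an actin-binding protein, had -2.49 ± 0.09, and Dclk1, a kinase of microtubules, had -2.14 ± 0.09.

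Further large negative interactions were in genes that were lower in jerboa foot. Dupd1, a dual specificity phosphatase of muscle, was at 0.423, 0.461 and 0.399 CPM in foot and 11.9, 11 and 10.5 CPM in forelimb of jerboa and at 48.9, 44.5 and 48.2 CPM in foot and 54.7, 57.7 and 50.3 CPM in forelimb of mouse. Carns1, carnosine synthase, was at 0.748, 0.988 and 0.648 CPM in foot and 12.8, 10.4 and 10.6 CPM in forelimb of jerboa and at 46.8, 51.8 and 46.7 CPM in foot and 44.2, 42.4 and 39.3 CPM in forelimb of mouse. Jerboa foot lay below 1 CPM for both genes and below jerboa forelimb without overlap. The interactions were -4.48 ± 0.16 and -4.00 ± 0.17, and the mouse differences were -0.20 and 0.21. The synaptic vesicle protein Sv2b had an interaction of -3.58 ± 0.24.

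Of the 10 largest decreases, Myl2 is described with the thick filament genes, and a pair rests on few reads. Atp13a5, a P5-type ATPase, had 2 reads in jerboa foot against 154 in forelimb, a forelimb to foot ratio of 69.7 (counting interval 19 to 580, 95%), so its fitted interaction is no bound and is not printed. Ankrd2, a stretch-responsive protein that binds titin, was at 0.0325, 0.23 and 0 CPM in foot and 4.49, 1.98 and 4.51 CPM in forelimb of jerboa and at 35.8, 29.4 and 32.8 CPM in foot and 36.2, 37 and 83.4 CPM in forelimb of mouse. Its interaction was -4.49 ± 1.04 (adjusted p = 0.0017), and -6.64 without the second jerboa foot library, which holds most of the foot reads. The third mouse forelimb library was high, and without it the mouse difference went from -0.68 to -0.17 (adjusted p = 0.45).

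The 7 markers of developmental fibres were the list with the largest negative median among those of muscle fibres: 0 were higher in the interaction, 5 were lower, and the median was -2.21 against 0.03 over all features. In mouse 6 of the 7 were higher in foot and 1 lower, and in jerboa 2 were higher and 3 lower. Myh8, the perinatal myosin heavy chain, was at 1672, 1421 and 1209 CPM in foot and 14848, 14955 and 14825 CPM in forelimb of jerboa. Mouse libraries held it at 10812, 10492 and 10070 CPM in foot and 16563, 14830 and 14960 CPM in forelimb. Foot was below forelimb without overlap in both species, further so in jerboa, and the interaction was -2.81 ± 0.13 (adjusted p = 3.89e-10), from -3.37 in jerboa and -0.56 in mouse.

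Myh3, the embryonic myosin heavy chain, did not follow Myh8. It was at 12568, 14087 and 13551 CPM in foot and 14870, 13401 and 14618 CPM in forelimb of jerboa, where the groups overlapped, and at 5302, 5105 and 4873 CPM in foot and 1774, 1754 and 1885 CPM in forelimb of mouse, where foot was higher. The interaction was -1.59 ± 0.09, while the jerboa difference was -0.09 ± 0.06 (adjusted p = 0.18) and 0.31 (adjusted p = 3.9e-04) once the trend with transcript length described below was removed. Myl4, the embryonic light chain, was at 354, 339.8 and 285 CPM in foot and 573, 488 and 647 CPM in forelimb of jerboa and at 928, 904 and 876 CPM in foot and 215, 249 and 236 CPM in forelimb of mouse. It was lower in jerboa foot and higher in mouse foot without overlap, with an interaction of -2.76 ± 0.13. Actc1, the cardiac actin used by immature fibres, had an interaction of -2.21 ± 0.11 from -0.85 in jerboa and 1.36 in mouse.

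The receptor subunit Chrng, which marks immature or denervated endplates, was higher in foot in both species and by similar amounts. It read 322, 348 and 309 CPM in foot and 108, 99.4 and 116 CPM in forelimb of jerboa and 187, 192 and 179.9 CPM in foot and 73.5, 64.8 and 65.3 CPM in forelimb of mouse. Foot was above forelimb in every library, and the interaction of 0.14 ± 0.09 was not called (adjusted p = 0.21). Chrna1, the alpha subunit, gave -0.11 ± 0.08 (adjusted p = 0.24), not called either.

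Of the 27 thick filament genes tested, 7 were higher and 15 lower in the interaction, with a median of -0.39. The 38 thin filament and Z-disc genes gave 10 higher and 17 lower, with a median of -0.17. Both lists were mostly lower in foot in either species: 18 of the 27 and 28 of the 38 in jerboa, and 18 and 30 in mouse. Myl2, the slow regulatory light chain, was at 13.6, 12 and 6.88 CPM in foot and 352, 353 and 387 CPM in forelimb of jerboa and at 172, 147 and 169 CPM in foot and 345, 367 and 426 CPM in forelimb of mouse. Foot was lower in both species, further so in jerboa, and the interaction was -3.81 ± 0.20 (adjusted p = 1.08e-09). Acta1, the adult skeletal actin, had an interaction of -0.43 ± 0.16 (adjusted p = 0.03) that was not called in 7 of the 12 fits that left out a library, nor with the replicate block. Tnnc1, slow troponin C, gave -0.95 ± 0.08. Members on the other side included Cryab, a small heat shock protein of the Z-disc, at 1.80 ± 0.13, and the Z-disc protein Pdlim3 at 1.24 ± 0.10.

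Markers of slow fibres did not move together. Myh7, the slow myosin heavy chain, was at 1840, 1740 and 1966 CPM in foot and 1080, 1212 and 1216 CPM in forelimb of jerboa and at 919, 858 and 846 CPM in foot and 1276, 1187 and 1174 CPM in forelimb of mouse, higher in jerboa foot and lower in mouse foot, with an interaction of 1.13 ± 0.09. Slow troponin T, Tnnt1, gave 1.0 ± 0.09, against -3.81 for Myl2. Of the 10 slow markers 2 were higher and 4 lower in the interaction, and of the 12 fast markers 5 were higher and 6 lower. Myh1, the fast IIx myosin, was higher in the interaction at 1.92 ± 0.15 although it was lower in foot in both species, at -0.90 in jerboa and -2.81 in mouse.

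Genes of excitation-contraction coupling, which link the action potential to calcium release, were mixed. In this list 12 of 28 were higher (42.9%) and 10 lower (35.7%), against 31.8% and 30.1% of all features. The median of 0.01 turned negative under each other scaling tried. Sln, sarcolipin, an inhibitor of the calcium pump, was at 81.1, 103 and 98.7 CPM in foot and 481, 399 and 453 CPM in forelimb of jerboa and at 266, 284 and 273 CPM in foot and 229.9, 256 and 199 CPM in forelimb of mouse. Foot was below forelimb in jerboa and above it in mouse, without overlap, and the interaction was -2.50 ± 0.14 (adjusted p = 1.88e-09). The calcium release channel Ryr3 gave -1.53 ± 0.10 and sarcalumenin, Srl, gave -1.31 ± 0.07, while Hrc, a calcium-binding protein of the sarcoplasmic reticulum, gave 0.82 ± 0.06. Among 28 genes of glycolysis and creatine phosphate 10 were higher (35.7%) and 12 lower (42.9%). Fbp2, muscle fructose bisphosphatase, had an interaction of -2.45 ± 0.17, Phkg1, the catalytic subunit of muscle phosphorylase kinase, -1.51 ± 0.11, Ckm, muscle creatine kinase, -1.29 ± 0.10, and Ak1, adenylate kinase, -1.07 ± 0.08. All 4 were lower in foot in both species and further so in jerboa.

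The respiratory chain lists leaned to higher interactions. In complex I 22 of 35 tested genes were higher and 4 lower (median 0.37), in complexes II and III 6 of 14 and 2, in cytochrome oxidase 9 of 15 and 3 (median 0.35), and in ATP synthase 8 of 16 and 0. Few of these genes were higher in jerboa foot: 2 in complex I, 1 in complexes II and III, 5 in cytochrome oxidase and 0 in ATP synthase. The 5 included Cox7a2 at 0.89 and Cox4i2 at 1.19. Of the 35 complex I genes 22 were lower and 2 higher in jerboa foot, and 34 were lower in mouse foot, with medians of -0.26 and -0.54. Ndufa11, an accessory subunit, had an interaction of 1.02 ± 0.10, Cox7a2 1.62 ± 0.08 and its muscle isoform Cox7a1 1.47 ± 0.09. In contrast, 8 of 36 genes of the tricarboxylic acid cycle and fatty acid oxidation were higher and 14 lower, including the fatty acid transporter Cd36 at -1.34 ± 0.09, the binding protein Fabp3 at -1.01 ± 0.08 and Etfdh, which passes electrons from fatty acid oxidation to the chain, at -0.88 ± 0.07. All 36 were lower in jerboa foot and 34 in mouse foot.

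The interaction ran with transcript length, which bears on these lists. Across the 12476 features with a mouse transcript length in GENCODE M21, used for both species, Spearman's rho of length with the log2 value was -0.303 for the interaction, -0.362 for the jerboa difference and -0.173 for the mouse difference (a description across features, which are not independent). In the shortest of 8 bins of equal size, 243 to 1430 nucleotides, 48.8% of features were higher and 11.7% lower, with a median of 0.30. In the longest bin 16.4% were higher and 56.6% lower, with a median of -0.36. With a smooth length trend taken out of each library, 7329 features were called and 6199 of the 7760 calls (79.9%) remained in the same direction. Of all features 30% were then higher and 28.5% lower. Complex I then gave 9 higher and 12 lower (median 0.07), complexes II and III 3 and 7, cytochrome oxidase 4 and 3, ATP synthase 2 and 5, and the tricarboxylic acid cycle list 5 and 20 (median -0.24). The developmental fibre markers kept a median of -2.43.

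**Figure D3:**
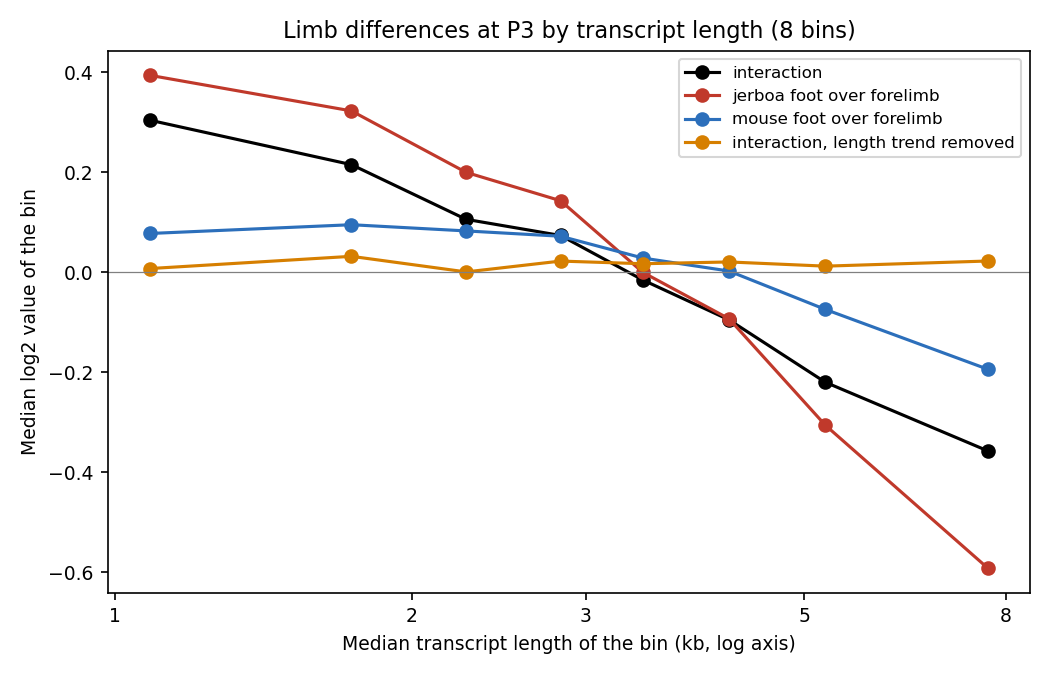
Median log2 value (y axis) of features in 8 bins of transcript length (x axis, kb, log axis) for the interaction, the jerboa and the mouse limb differences and the interaction with the length trend removed. The interaction runs from 0.30 in the shortest bin to -0.36 in the longest, and the corrected interaction stays at or below 0.03 in every bin.

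Proteasome genes had the highest share of positive interactions of the 33 pathway lists: 30 of 35 tested members were higher, 0 lower, with a median of 0.40. In jerboa 31 were higher in foot and 1 lower, and in mouse 7 were higher and 6 lower. Psmb2, a proteasome subunit, was at 151, 150.5 and 138 CPM in foot and 87.4, 84.1 and 79.4 CPM in forelimb of jerboa and at 103, 106 and 108 CPM in foot and 95, 96.3 and 95.1 CPM in forelimb of mouse. Jerboa foot was above forelimb without overlap, by 0.81, against 0.15 in mouse, and the interaction was 0.66 ± 0.07. Psmb7 gave 0.66 ± 0.07, Psmb3 0.63 ± 0.07 and the activator subunit Psme2 0.70 ± 0.08. Neither these nor Psmb2 were called when a minimum of 1.5-fold was required. With the length trend removed 21 members were higher and 0 lower, with a median of 0.20, and Psmb2 gave 0.34 (adjusted p = 3.52e-04).

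Autophagy and lysosome genes, which carry out bulk breakdown, gave 20 higher and 3 lower of 34, and 19 and 3 with the length trend removed. Map1lc3a, an LC3 protein of the autophagosome, had an interaction of 0.88 ± 0.06, the lysosomal calcium channel Mcoln1 0.78 ± 0.08 and Wipi1, an early autophagy protein, 0.67 ± 0.08. The autophagy kinase Ulk2 went the other way at -0.48 ± 0.06, and at -0.21 with the length trend removed. Neither Wipi1 nor Ulk2 was called when a minimum of 1.5-fold was required.

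Genes of ubiquitin ligases and atrophy were split, with 8 of 33 higher, 11 lower and a median of -0.03, and 9 and 7 (median 0.04) without the length trend. Both splits lie near the shares of all features. Trim63 was at 138, 127 and 127 CPM in foot and 58.9, 57.6 and 57 CPM in forelimb of jerboa. Mouse libraries held it at 53.1, 59.7 and 55.1 CPM in foot and 79.5, 68.2 and 71.6 CPM in forelimb. Foot was above forelimb in jerboa and below it in mouse, without overlap, and the interaction was 1.56 ± 0.09 (adjusted p = 2.26e-09). Fbxo32 did not follow. It read 6.05, 6.75 and 5.09 CPM in foot and 5.59, 5.97 and 4.41 CPM in forelimb of jerboa and 31.9, 34.2 and 28.9 CPM in foot and 40, 35.5 and 28.9 CPM in forelimb of mouse, foot and forelimb overlapping in both, with an interaction of 0.31 ± 0.20 (adjusted p = 0.19). It was called at 0.65 (adjusted p = 0.0094) with the length trend removed, and at 0.43 (adjusted p = 0.047) without the third mouse forelimb library.

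Genes known to respond to denervation gave 10 higher (38.5%) and 6 lower (23.1%) of 26, with a median of 0.16. Over all features 31.8% were higher and 30.1% lower. Without the length trend the list gave 11 and 5 (median 0.41). Ampd3, an AMP deaminase, had an interaction of 1.43 ± 0.14 from 1.45 in jerboa and 0.02 in mouse. The neuromuscular junction list gave 6 higher and 12 lower of 26 (median -0.19), and 7 and 10 (median 0.0013) without the trend. Lrp4, the agrin receptor, was at 74.2, 76.5 and 73.7 CPM in foot and 184, 213 and 183 CPM in forelimb of jerboa and at 141, 146 and 142 CPM in foot and 115, 109.6 and 112 CPM in forelimb of mouse. It was lower in jerboa foot and higher in mouse foot, with an interaction of -1.72 ± 0.08. Musk, the kinase that pairs with it, was higher at 0.41 ± 0.10 (adjusted p = 0.0023). Phldb2, an anchor of the postsynaptic membrane, gave -1.48 ± 0.09 and acetylcholinesterase, Ache, -1.37 ± 0.11.

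**Figure D4:**
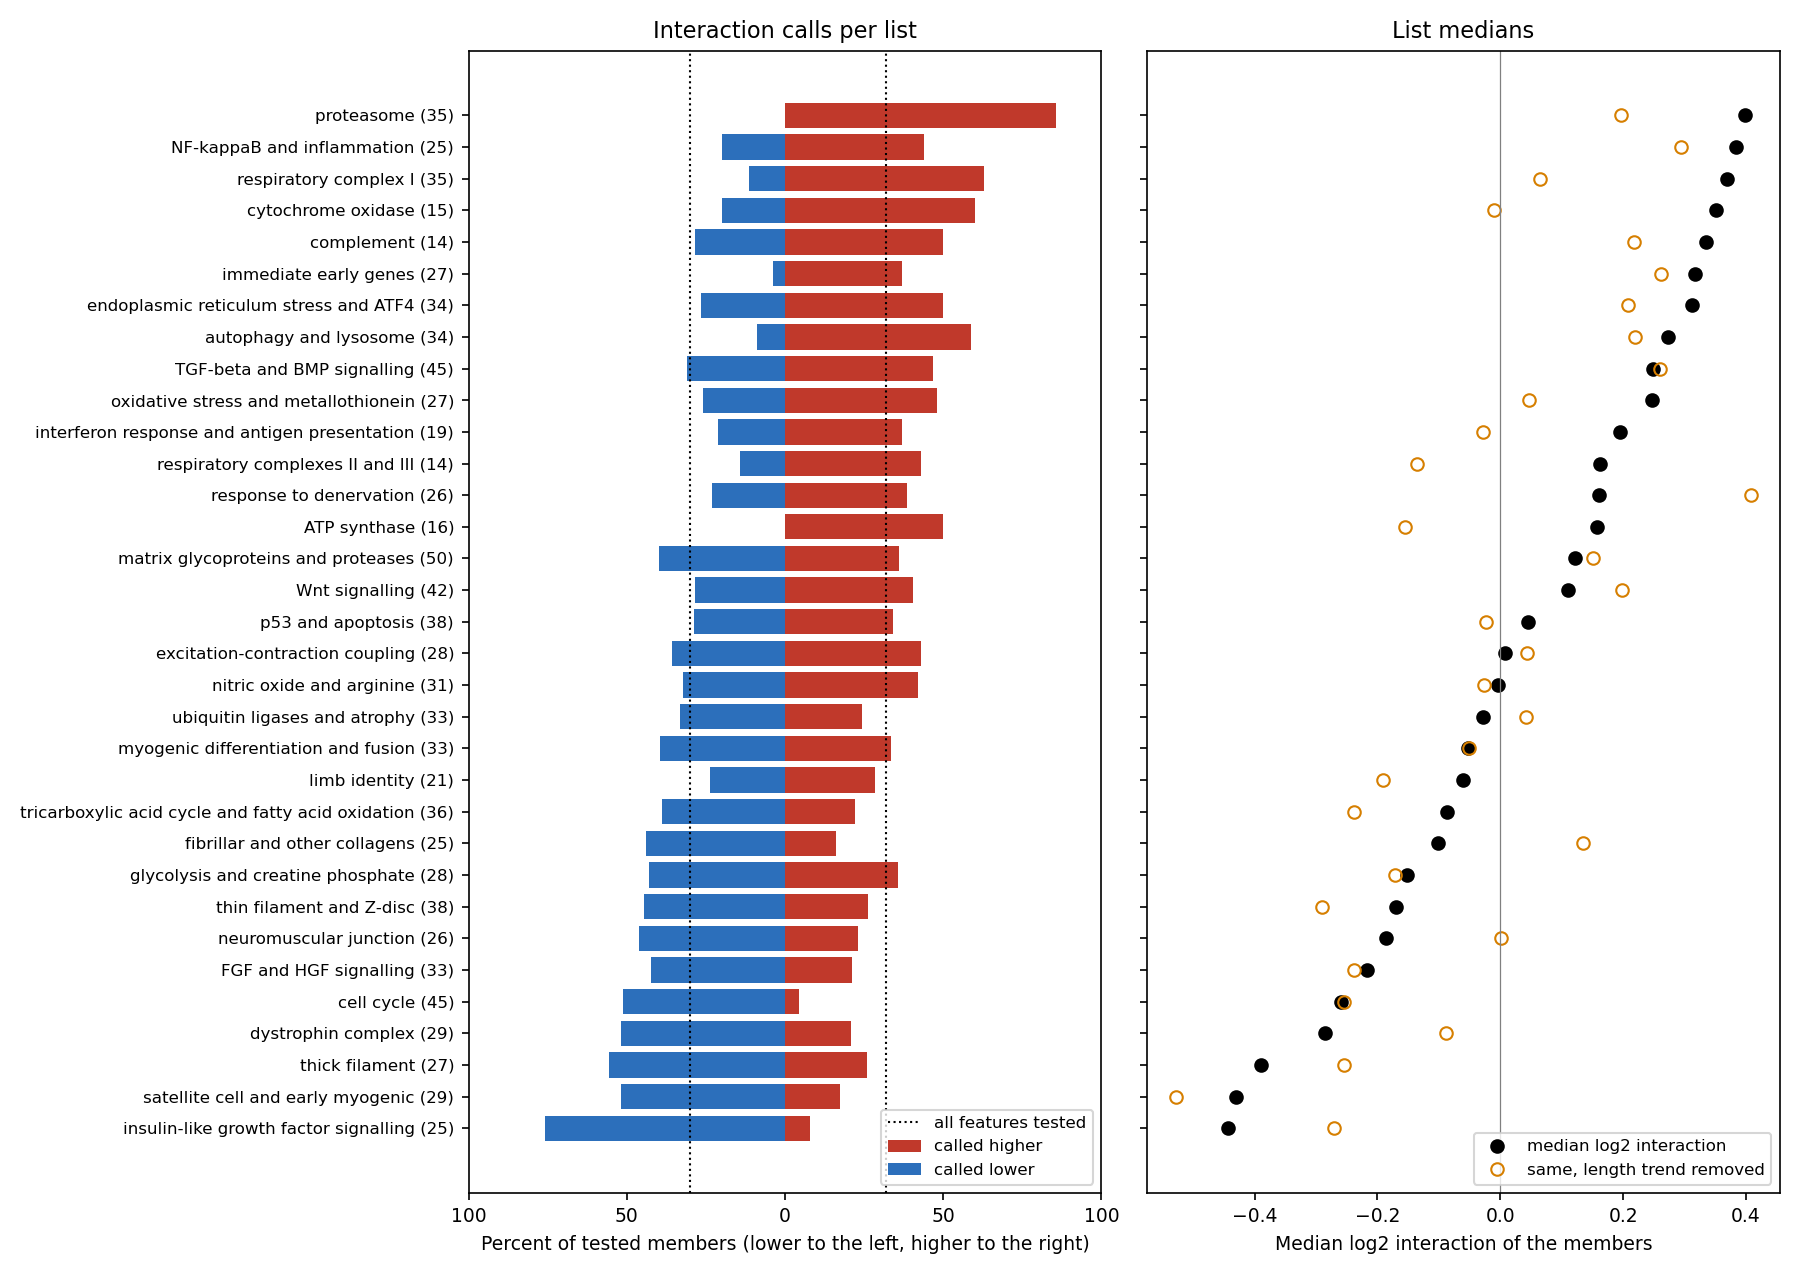
For each of the 33 pathway lists, with the number of members tested in parentheses, the left panel shows the percent of tested members called lower (blue, to the left) and higher (red, to the right) beside the shares of all features (dotted lines, 30.1% and 31.8%). The right panel shows the median log2 interaction before (filled) and after (open) the length trend was removed: proteasome is at the top at 0.40 and insulin-like growth factor signalling at the bottom at -0.44.

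Genes of satellite cells and early myogenesis were more often lower: 5 of 29 were higher and 15 lower, with a median of -0.43, and 6 and 16 without the length trend. Pax7, the transcription factor of satellite cells, was at 13.1, 9.78 and 9.43 CPM in foot and 30.4, 26.8 and 25.4 CPM in forelimb of jerboa. Mouse libraries held it at 39.5, 36 and 41.6 CPM in foot and 43.3, 42.1 and 41 CPM in forelimb. It was lower in jerboa foot without overlap, overlapped in mouse, and had an interaction of -1.23 ± 0.14 (adjusted p = 3.57e-06). Notch1, a receptor that keeps these cells quiescent, gave -1.19 ± 0.10 and the adhesion protein Cdh15 -1.26 ± 0.11. Vcam1, which also marks satellite cells but is made by other cells too, went the other way at 2.19 ± 0.11, from 2.28 in jerboa. The 7 satellite cell markers summed to 354 to 421 CPM in jerboa foot, 395 to 439 CPM in jerboa forelimb, 489 to 498 CPM in mouse foot and 361 to 388 CPM in mouse forelimb. None was at 0 reads in any P3 group. In such bulk samples fewer cells of a type and less RNA per cell cannot be told apart.

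Among genes of differentiation and fusion 11 of 33 were higher (33.3%) and 13 lower (39.4%), against 31.8% and 30.1% of all features. Without the length trend 15 were higher and 14 lower. Myog, a late myogenic factor, was at 347, 318 and 309 CPM in foot and 236, 177 and 189 CPM in forelimb of jerboa and at 384, 405 and 364 CPM in foot and 163, 137 and 143 CPM in forelimb of mouse. It was higher in foot in both species, less so in jerboa, and its interaction was -0.69 ± 0.13. The myogenic co-receptor Cdon gave -1.09 ± 0.07, the adhesion protein Jam3 -1.03 ± 0.07 and Kirrel -1.19 ± 0.10, whereas the transcription factor Mef2a gave 1.04 ± 0.07.

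Growth factor lists leaned lower. Of 33 genes of FGF and HGF signalling 7 were higher and 14 lower, and 10 and 14 without the length trend. The share of higher members in that list was then near the 30% of all features. Of 25 genes of insulin-like growth factor signalling 2 were higher and 19 lower (median -0.44), and 3 and 13 without the length trend. Fgf6, a growth factor of muscle, was at 2.08, 1.74 and 2.59 CPM in foot and 15.4, 11.8 and 14.7 CPM in forelimb of jerboa. In mouse it was at 44.2, 33.2 and 35.1 CPM in foot and 32, 36.9 and 34.9 CPM in forelimb. Jerboa foot was below jerboa forelimb without overlap and the mouse groups overlapped, and the interaction was -2.85 ± 0.21 (adjusted p = 2.67e-08). Its receptor Fgfr4 gave -1.22 ± 0.12 and the decoy-like receptor Fgfrl1 -1.53 ± 0.13. Met, the HGF receptor on satellite cells, gave -1.31 ± 0.13, while Hgf itself was lower in foot in both species and its interaction of -0.09 ± 0.31 was not called (adjusted p = 0.83). Plau, a protease that releases active HGF, gave -1.90 ± 0.11.

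Igfbp2, a binding protein for insulin-like growth factors, was at 40.9, 40.3 and 40 CPM in foot and 51.4, 51.5 and 53.4 CPM in forelimb of jerboa and at 83.8, 88.2 and 87.3 CPM in foot and 33.3, 29.5 and 33.5 CPM in forelimb of mouse. It was lower in jerboa foot and higher in mouse foot without overlap, with an interaction of -1.80 ± 0.07 (adjusted p = 1.70e-10). The receptors Igf1r and Igf2r gave -1.22 ± 0.09 and -0.86 ± 0.06. With the length trend removed these were -0.76 and -0.44, still called.

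TGF-beta and BMP genes included both directions, 21 of 45 higher (46.7%) and 14 lower (31.1%). Over all features 31.8% were higher and 30.1% lower. Tgfb1, a ligand that drives matrix production, was at 61.1, 62 and 69.6 CPM in foot and 14.9, 16.4 and 16.2 CPM in forelimb of jerboa and at 12.7, 11.9 and 11 CPM in foot and 14.3, 14.4 and 12.4 CPM in forelimb of mouse. Jerboa foot was above jerboa forelimb without overlap and the mouse groups overlapped, and the interaction was 2.23 ± 0.11 (adjusted p = 1.07e-09). Ltbp1, which stores the latent ligand in the matrix, gave 1.78 ± 0.08, while the co-receptor Tgfbr3 gave -1.89 ± 0.10 and the BMP effector Smad5 -1.51 ± 0.08. Of 42 Wnt signalling genes 17 were higher (40.5%) and 12 lower (28.6%). Secreted inhibitors were among the members with the smallest p: Sfrp4 at 3.84 ± 0.29, Dkk2 at 2.62 ± 0.16 and Sfrp1 at 2.27 ± 0.14, and all of these were higher in jerboa foot and lower in mouse foot.

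The list of nitric oxide and arginine genes gave 13 higher (41.9%) and 10 lower (32.3%) of 31, against 31.8% and 30.1% of all features. Without the length trend it gave 9 and 10. Beside Ass1, its members with the smallest p belonged to cyclic GMP signalling. Nos1, the nitric oxide synthase of muscle fibres, was at 0.195, 0.23 and 0.249 CPM in foot and 2.8, 2.39 and 2.54 CPM in forelimb of jerboa and at 18.9, 15.5 and 17 CPM in foot and 61.8, 55.7 and 56.9 CPM in forelimb of mouse. Foot was lower in both species, and the interaction was -1.76 ± 0.27 (adjusted p = 5.25e-05). Gucy1a2, a soluble guanylate cyclase subunit, gave -3.32 ± 0.29, the kinase Prkg1 -1.93 ± 0.14 and the phosphodiesterase Pde5a -1.36 ± 0.09. The dystrophin complex, which ties the cytoskeleton of the fibre to the matrix, gave 6 higher and 15 lower of 29, and 6 and 10 without the length trend. Dmd gave -1.05 ± 0.07, and -0.57 without the trend, Dag1 -0.77 ± 0.06, Dysf -0.93 ± 0.09 and Sgcd, a sarcoglycan, 1.03 ± 0.08.

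Cell cycle genes were higher in mouse foot in 41 of 45 cases and lower in 1, and in jerboa foot higher in 26 and lower in 8. In the interaction 2 were higher and 23 lower, with a median of -0.26, and 0 and 23 without the length trend. E2f2, a transcription factor of S phase, gave -1.48 ± 0.13, Ccnd2, a D-type cyclin, -1.29 ± 0.13, Rb1, the brake on entry, -1.29 ± 0.08, and Rrm2, which makes deoxynucleotides, -0.68 ± 0.11. Rrm2 read 74.5, 73.3 and 65.4 CPM in foot and 74.4, 77.1 and 65.6 CPM in forelimb of jerboa, where the groups overlapped, and 55.6, 55.6 and 59 CPM in foot and 34, 33.2 and 40.3 CPM in forelimb of mouse, where foot was higher.

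Genes of endoplasmic reticulum stress and the ATF4 response gave 17 higher and 9 lower of 34, and 13 and 7 without the length trend. Atf5 gave 1.22 ± 0.14, Pycr1, an enzyme of proline synthesis, 0.95 ± 0.11 and Atf4 itself 0.56 ± 0.07, while Psat1, an enzyme of serine synthesis, gave -0.77 ± 0.08. Of 27 immediate early genes 10 were higher and 1 lower, and 6 and 0 without the length trend. NF-kappaB and inflammation genes gave 11 and 5 of 25, interferon and antigen presentation genes 7 and 4 of 19, complement genes 7 and 4 of 14, p53 and apoptosis genes 13 and 11 of 38, and oxidative stress genes 13 and 7 of 27. Without the length trend the counts were 12 and 6 for NF-kappaB and inflammation, 7 and 3 for interferon and antigen presentation and 7 and 4 for complement. They were 10 and 11 for p53 and apoptosis and 8 and 9 for oxidative stress. The interferon and antigen presentation median went from 0.19 to -0.028. Of all features 31.8% were higher and 30.1% lower, and 30% and 28.5% without that trend. The p53 and apoptosis counts lay near these shares in both settings, and the oxidative stress counts did so without the trend. The limb identity list gave 6 (28.6%) and 5 (23.8%) of 21, near the shares of all features, and 5 and 5 without the trend.

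Matrix genes were divided. Of 25 collagens 4 were higher and 11 lower, which became 11 and 7 without the length trend, so the balance of this list turned with that setting. The basement membrane genes Col4a1, Col4a2 and Nid2 gave -1.11 ± 0.07, -1.07 ± 0.07 and -1.30 ± 0.06, and -0.78, -0.75 and -1.11 without the trend. Among 50 glycoproteins and proteases of the matrix 18 were higher (36%) and 20 lower (40%), against 31.8% and 30.1% of all features. Without the trend 18 were higher and 13 lower. Postn, periostin, a matrix protein of growing and injured connective tissue, was at 12739, 14848 and 13147 CPM in foot and 3702, 4335 and 4327 CPM in forelimb of jerboa and at 3162, 2864 and 2865 CPM in foot and 2547, 2401 and 2633 CPM in forelimb of mouse. Foot was above forelimb without overlap in both species, further so in jerboa, and the interaction was 1.49 ± 0.11.

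Markers of some other cell types moved with the interaction and those of others did not. The part of these cells in the results above was not tested. All 11 endothelial markers were tested, of which 0 were higher and 9 lower (median -0.87, and -0.95 without the length trend). They summed to 223 to 264 CPM in jerboa foot, 1065 to 1225 CPM in jerboa forelimb, 588 to 641 CPM in mouse foot and 1239 to 1359 CPM in mouse forelimb. None was at 0 reads in any P3 group. Cdh5, a cadherin of endothelial junctions, was at 31.8, 36.9 and 37.1 CPM in foot and 219, 217 and 261 CPM in forelimb of jerboa and at 173, 189 and 163 CPM in foot and 339, 356 and 350.4 CPM in forelimb of mouse. Foot was below forelimb in both species, without overlap, and the interaction was -1.73 ± 0.11, against -1.26 ± 0.10 for Pecam1.

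For tendon the interaction was called in 6 of 13 markers, positive in 5 and negative in 1, which left 7 without a call. The positive share of 38.5% lay near the 31.8% of all features, and the negative share of 7.7% lay below their 30.1%. The 13 markers were mostly higher in foot in both species, 12 in jerboa, where 1 was lower, and 11 in mouse. Their sum was 10990 to 12720 CPM in jerboa foot, 4611 to 5555 CPM in jerboa forelimb, 4450 to 4964 CPM in mouse foot and 2409 to 2996 CPM in mouse forelimb, and none was at 0 reads. Tnmd, tenomodulin, gave 0.97 ± 0.16 and Scx, the transcription factor of tendon, 1.13 ± 0.17. Of 13 cartilage markers tested, 2 were higher and 6 lower, summing to 1632 to 2124 CPM in jerboa foot, 775 to 934 CPM in jerboa forelimb, 627 to 770.4 CPM in mouse foot and 306 to 422 CPM in mouse forelimb. Snorc and Ihh were at 0 reads in jerboa forelimb and Matn1 in mouse forelimb. Acan, aggrecan, gave 3.07 ± 0.28 while Cnmd, chondromodulin, gave -6.07 ± 0.41, the latter from mouse, where it read 4.41, 5.79 and 4.77 CPM in foot and 0.104, 0.106 and 0.202 CPM in forelimb.

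Of 6 keratinocyte markers tested, of 12 in the files, 3 were higher and 0 lower. They summed to 67.2 to 89.7 CPM in jerboa foot, 23.6 to 32.3 CPM in jerboa forelimb, 14.4 to 15.9 CPM in mouse foot and 13 to 14.3 CPM in mouse forelimb, with Ovol1 and Lor at 0 reads in jerboa forelimb. Trp63, the transcription factor of basal epidermis, gave 2.06 ± 0.18. Of 14 macrophage markers 2 were higher and 6 lower, with sums of 321 to 334 CPM in jerboa foot, 454 to 539.9 CPM in jerboa forelimb, 389 to 427 CPM in mouse foot and 421 to 498 CPM in mouse forelimb, and Mrc1, the mannose receptor, gave -1.37 ± 0.12. Of 11 Schwann cell markers 1 was higher and 5 lower, with sums of 220.0 to 275 CPM in jerboa foot, 389 to 568 CPM in jerboa forelimb, 678 to 731 CPM in mouse foot and 1286 to 1323 CPM in mouse forelimb, and the neurotrophin receptor Ngfr gave -1.57 ± 0.08. No macrophage or Schwann cell marker in the files was at 0 reads. Of 11 fibro-adipogenic markers tested 3 were higher and 6 lower, with Pi16 at -2.80 ± 0.15 and Ly6a at 0 reads in both jerboa groups. Smooth muscle and pericyte markers gave 2 and 8 of 12. Neurons gave 3 and 3 of 8 (37.5% each) and fat cells 3 and 2 of 7 (42.9% and 28.6%), against 31.8% and 30.1% of all features. Bone markers gave 0 and 1 of 4 tested. The 1 lymphocyte marker tested was lower and the 1 erythroid marker tested was not called.

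The same contrast at birth used 12 other libraries. It called 5937 of the 12531 features (47.4%), 2700 higher (21.5%) and 3237 lower (25.8%). Both ages called 4330 features, 4045 in the same direction, which is 52.1% of the P3 calls and 68.1% of the P0 calls, and 285 in opposite directions. Of the 7760 features called at P3, 6345 (81.8%) had the same sign at P0. The difference between the ages was called for 3009 features (24%), 1502 higher at P3 and 1507 lower (12% each). The fastq files are described as trimmed for P0 and as raw original for P3, so age and that difference cannot be told apart.

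Several of the largest P3 interactions were as large at birth. Corin was at 5.09 ± 0.27 at P0 against 5.35 ± 0.19 at P3, Pvalb at 5.12 ± 0.34 against 5.33 ± 0.42, Fgf6 at -2.81 ± 0.29 against -2.85 ± 0.21, and Cnmd at -6.11 ± 0.59 against -6.07 ± 0.41. None of these differences between ages was called. Others were larger at P3. Ass1 went from 2.69 ± 0.22 to 4.86 ± 0.23 (adjusted p of the difference = 4.19e-05), Tecrl from -2.06 ± 0.48 to -5.04 ± 0.17 (adjusted p = 7.22e-04), and Myh8 from -0.58 ± 0.21 to -2.81 ± 0.13 (adjusted p = 3.48e-06). Actc1 and Sln were near 0 at birth, at 0.07 ± 0.14 and 0.26 ± 0.20, and at -2.21 ± 0.11 and -2.50 ± 0.14 at P3. Hgf went the other way, from 2.25 ± 0.39 at P0 to -0.09 ± 0.31 at P3 (adjusted p = 0.0015).

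**Figure D5:**
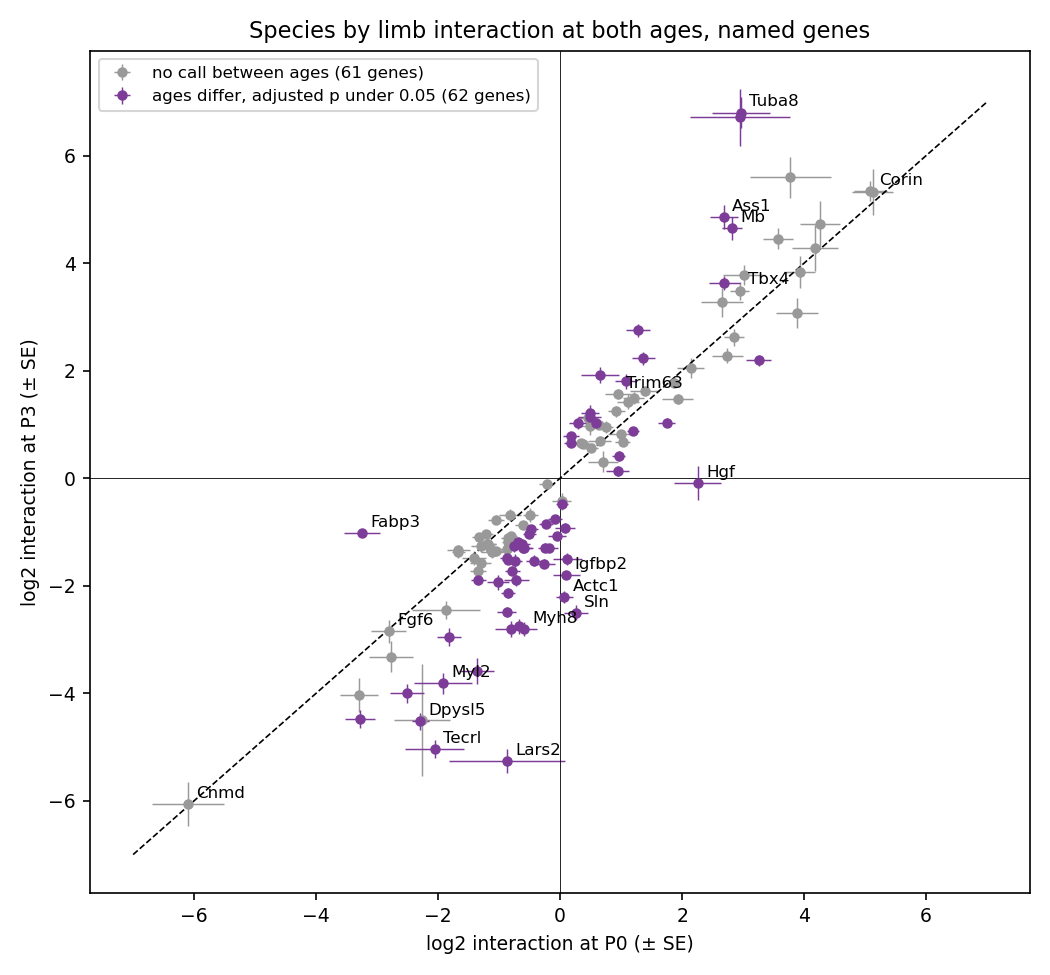
The log2 interaction of named genes at P0 (x axis) and P3 (y axis), with bars for the SE of each fit and a dashed line of equality. Purple genes passed an adjusted p of 0.05 for a difference between ages: Tecrl, Myh8, Actc1 and Sln lie below the line and Ass1 and Mb above it, whereas Corin, Fgf6 and Cnmd lie near it.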

How the data were processed

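Total RNA was sequenced from 12 P3 and 12 P0 libraries, 3 per group. The authors deposited raw read counts per feature, whole numbers in 3 columns by strand, and column 4 of each file, which held 98.5% to 99.6% of stranded P3 reads, was used. STAR was used per the submitters' processing notes, with no version, and builds and annotation are not given in the sources used. Symbols for 17529 of 17641 mouse Ensembl transcript identifiers came from GENCODE M21 (GRCm38). 5 symbols given to more than 1 feature were left out, and some genes of the rule are left out. No coordinates are printed because the files' build is not given.

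The fit was made with edgeR 4.0.16 in R 4.3.3 (TMM over both species, quasi-likelihood F test, two-sided, 8 residual degrees of freedom), with 1 coefficient per group and Benjamini-Hochberg adjustment over 12531 features. Tested features held 99.57% of reads and the common biological coefficient of variation was 0.0654. CPM uses TMM-scaled library sizes, an SE is the log2 value over the root of F, and ± marks SE. Counts with 0 to 3 reads in a group are given as ratios or bounds.

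Named genes were the 10 largest interactions in each direction that were called, reached 10 CPM in 1 group and did not overlap in the species with the larger change, then 5 called in opposite directions in each, up to 4 list members with the smallest p, and fixed genes of growth, atrophy, synapse and limb identity. Members and lists were chosen with earlier results of these data known, and lists are described by counts without a set test. Levels are compared between limbs within a species, and species only through the interaction. Alternatives were RLE and upper quartile scaling, TMM within each species, other filters, DESeq2 1.42.0, limma 3.58.1 voom, all 24 libraries, a replicate block, a minimum of 1.5-fold, reads of either strand and each library left out. Removal of the length or GC trend was added after seeing the data.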

Additional observations from a re-analysis of the deposited data

Results flagged for a closer look

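Of the 127 named genes, 62 had an interaction that differed between P3 and P0 by a test of that difference (adjusted p under 0.05, edgeR's quasi-likelihood F test over all 24 libraries), against 24% of all features. Of these 16 were higher at P3 and 46 lower. Apart from the fixed genes, the named genes were picked for a large interaction, opposite changes or a small p at P3. That choice favours a difference from P0, so neither the count nor its split is a result about these genes as a set. Each value below is the log2 interaction at P3 minus that at P0. Genes with 0 to 3 reads in a group at either age are left out of the 62, but not of the 127 or of all features. Age and the description of the fastq files cannot be told apart, and groups of 3 libraries were too small for a search for outlying samples.

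Developmental and contractile genes were lower at P3: Sln by -2.77, Actc1 -2.29, Myh8 -2.24, Myl4 -2.10, Myl2 -1.92, Myh3 -1.33, Ryr3 -1.12, Srl -0.72 and Tnnc1 -0.48. Myh1 (1.25), Cryab (0.71) and Myh7 (0.64) were higher. Of the genes of energy supply, Phkg1 (-1.64), Ak1 (-1.02) and Ckm (-0.70) were lower and Fabp3 (2.22), Mb (1.81) and Ndufa11 (0.71) higher. Fabp3 was further below 0 at P0 than at P3.

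Among the largest P3 interactions, Tuba8 (3.82), Gcg (3.74), Ass1 (2.16), Kcnc4 (1.46) and Naalad2 (0.93) were higher at P3. Lars2 (-4.42), Tecrl (-3.00), Dpysl5 (-2.24), Sv2b (-2.23), Shroom3 (-1.62), Carns1 (-1.51), Dclk1 (-1.30), Dupd1 (-1.22) and Scn3b (-1.14) were lower. The P0 interactions of Lars2 and Gcg had SEs of 0.95 and 0.82, the largest of the genes named in this paragraph.

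Signalling genes were mostly lower at P3: Hgf (-2.35), Igfbp2 (-1.91), Plau (-1.19), Prkg1 (-0.93), Fgfrl1 (-0.81), Smad5 (-0.67), Igf2r (-0.65), Igf1r (-0.60) and Tgfbr3 (-0.57), with Tgfb1 (0.85) higher. Genes of satellite cells and the synapse were lower, with Vcam1 at -1.08, Lrp4 -0.95, Chrng -0.82, Phldb2 -0.63, Musk -0.56, Cdh15 -0.52 and Notch1 -0.51, while Mef2a (0.44) was higher. In the dystrophin complex Dysf (-1.03), Sgcd (-0.73), Dag1 (-0.70) and Dmd (-0.56) were lower. Breakdown and stress genes gave both signs: Atf5 (0.72), Mcoln1 (0.59) and Psmb2 (0.47) were higher, Ulk2 (-0.53) and Map1lc3a (-0.32) lower. Some of these lower values were falls that stayed above 0. From P0 to P3 Vcam1 went from 3.26 to 2.19, Sgcd from 1.74 to 1.03 and Map1lc3a from 1.19 to 0.88. Musk was at 0.41 at P3. Pi16 (-2.0), Nid2 (-1.14) and Rb1 (-1.05) were lower as well.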

How the results depend on the processing

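The number of interaction calls (7760) stayed between 6901 and 7966 under RLE, upper quartile and within-species scaling, the other filters, DESeq2, limma voom, all 24 libraries, reads of either strand and the trends of length and GC, and between 7287 and 7575 with each library left out. Higher calls made up 51.3% of calls, and 44.2% under upper quartile scaling. A minimum of 1.5-fold left 2480 (1036 higher, 1444 lower), 3799 in jerboa (1575 and 2224) and 1473 in mouse (495 and 978), since small differences are then not called. The interactions of Wipi1, Ulk2, Atf4, Rrm2, Myog, Musk, Acta1 and the named proteasome genes were among those not called then. The r of deviations between foot and forelimb libraries ran from -0.07 to 0.07 for same-numbered ones and from -0.16 to 0.12 for others. With 3 libraries per group this cannot show whether same-numbered libraries came from 1 animal. A replicate block gave 7686 calls, 7514 of them shared with the 7760. The medians of some lists turned sign without the length trend. Cytochrome oxidase went from 0.35 to -0.011, ATP synthase from 0.16 to -0.16 and complexes II and III from 0.16 to -0.14. Interferon and antigen presentation went from 0.19 to -0.028 and collagens from -0.10 to 0.13. For single genes, signs turned only for values that were small or not called. With the length trend removed the jerboa difference of Myh3 was 0.31, the mouse differences of Met, Fbxo32 and Musk were 0.12, 0.023 and -0.016, and the Chrna1 interaction was 0.032. The mouse difference of Met was 0.00091 under RLE, 0.023 under upper quartile scaling, 0.0018 in DESeq2 and 0.0020 without the GC trend, which also gave 0.031 for the Hgf interaction. With 1 library left out, the Hgf interaction ran from -0.28 to 0.13, the jerboa difference of Pvalb from -0.22 to 0.88, and the mouse differences of Fgf6 from -0.017 to 0.20, Met from -0.097 to 0.058 and Musk from -0.040 to 0.042. The causes were not tested. Below the level of 3 reads, 0.0549 to 0.145 CPM in a library, no difference was detectable.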

Other observations

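The gene families below were picked by symbol after the values were seen, so their counts describe the libraries and test nothing. Over all features 31.8% were higher and 30.1% lower, and 30% and 28.5% with the length trend removed. Of 82 cytosolic ribosomal protein genes 63 were higher and 4 lower (median 0.43, against 0.03 over all features), and with the length trend removed 23 were higher and 9 lower (median 0.11), so the share of higher members was then below that of all features. Mitochondrial ribosomal proteins gave 52 higher and 1 lower of 77, and 33 and 13 without the trend. Translation initiation factors gave 28 and 4 of 49, and 24 and 5 without it. Aminoacyl-tRNA synthetases, which charge tRNAs with amino acids, gave 9 and 0 of 17, and 10 and 1. Subunits of the vacuolar ATPase, which acidifies lysosomes, gave 10 and 0 of 15, and 8 and 1.

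Genes with P4h or Plod symbols, which include enzymes that hydroxylate collagen, were higher in 6 of 8 cases with 0 lower. This held before and after the length trend was removed, with medians of 0.51 and 0.49. Of 11 Wnt ligands 6 were higher and 0 lower, with a median of 0.70 that came with a median of -0.05 in jerboa and -1.25 in mouse. Laminins of the basement membrane gave 2 higher and 7 lower of 11, which became 3 and 3 without the length trend.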
